A study of Mus musculus with 16 samples.

Results

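Collagen-rich, non-cycling cells without Tnmd were found among the cells sorted from dorsal root ganglia at embryonic day (e) 15.5. The sort aimed at proprioceptive sensory neurons, yet 185 of the 960 e15.5 wells held cells of this kind, of 1536 wells in the whole series. Members were selected on measured values: at least 10000 unique molecular identifiers (UMIs, counts of distinct RNA molecules) in a well, under 10% of them mitochondrial, at least 2000 CPM (UMIs of a gene scaled to a total of 1000000 per cell) of the collagen I genes Col1a1 and Col1a2 together. They had under 100 CPM of the sensory neuron genes Avil and Isl1, under 100 CPM of the proliferation genes Mki67 and Top2a, and under 3 UMIs of the tendon gene Tnmd. Within them, cells with Dlk1 at or above the median of the group, 279 CPM, were compared with the cells below it. They are called Dlk1-high (n = 93) and Dlk1-low (n = 92). The values of these 8 genes chose the cells, so they are given as a description and were not tested. The study took 10 libraries of 96 wells at e15.5 from the PvtdTom line, a bacterial artificial chromosome transgene in which the parvalbumin promoter drives tdTomato. It sorted tdTomato-positive cells from thoracic and lumbar ganglia by fluorescence. All e15.5 cells carry this transgene and no other genotype or treatment was compared at this age. The labels do not give the segmental level of a library, nor the embryos its cells came from. A further 6 libraries of hand-picked cells at postnatal day (p) 1 were not compared. They held 1 member among 576 wells, of which 172 passed the UMI and mitochondrial limits (860 of 960 at e15.5).

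Fibroblasts and the other cells of connective tissue secrete fibrillar collagens and the proteoglycans that space them. Around an embryonic ganglion they lie in the meninges and epineurium and in the mesenchyme that becomes vertebrae, tendon and dermis. Dlk1 encodes a membrane protein with epidermal growth factor repeats that is related to Notch ligands but lacks the domain with which they bind Notch. It is known for holding back differentiation of fat and bone cells. The gene is expressed from the paternal chromosome of an imprinted cluster whose long noncoding RNAs Meg3, Rian and Mirg come from the maternal chromosome. Vcan encodes versican, a large proteoglycan that binds hyaluronan. Agtr2 encodes the type 2 angiotensin receptor, which is abundant in fetal mesenchyme. Aspn and Bgn encode asporin and biglycan, small leucine-rich proteoglycans of the collagen matrix.

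The e15.5 libraries held 3701900 to 9299431 UMIs, and a member cell held 27428 UMIs in the median (11483 to 127540). The tissue label of the libraries, proprioceptive sensory neurons, did not describe these cells: a list of 12 sensory neuron genes summed to 886 CPM in the members and 24514 CPM in the 390 e15.5 wells with neuron genes. The glia list summed to 36.5 to 747 CPM over libraries 1 to 7, the endothelial list to 19.6 to 154 CPM, and the myogenic list to at most 51.5 CPM with Pax7, Myf5, Myog and Myf6 at 0. The blood and immune list reached 11214 CPM, in library 6 through globin genes. The well with the most UMIs among the members was Dlk1-low. Wells that held more than 1 cell were not removed by a caller; 2 members had at least 5 UMIs of Xist together with at least 5 UMIs of Y-linked genes.

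Nearest to each limit, the smallest member held 11483 UMIs and the largest well left out on this limit alone 8223. The collagen I sum was 2153 CPM just inside and 1883 CPM just outside. Mki67 and Top2a summed to 97.1 CPM just inside and 101 CPM just outside, and Avil and Isl1 to 90.8 and 101 CPM. The mitochondrial share was 9.98% and 10.1%. The Dlk1 levels on either side of the median were 279 and 277 CPM.

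Dlk1 spanned the members from 0 to 14802 CPM, and the libraries differed in it. Summed over the members of a library, Dlk1 stood at 1321, 756, 1991, 259 and 1316 CPM in libraries 1 to 5 and at 5396, 6893 and 7919 CPM in libraries 6 to 8. The latter were all above the former. In libraries 1 to 5 the Dlk1-high cells were 5 of 18, 9 of 33, 12 of 28, 6 of 23 and 3 of 12 members, and in libraries 6 to 8 they were 18 of 24, 19 of 22 and 18 of 19. Libraries 9 and 10 held 2 and 4 members, with Dlk1 at 1106 and 422 CPM, and had too few cells of each Dlk1 class to be compared. Hoxc10, a homeobox gene of the lumbar region that was named after its values were seen, was 2.41 to 21.5 CPM in the members of libraries 1 to 5 and 169 to 221 CPM in those of libraries 6 to 8, so the libraries with the most Dlk1 were also those with Hoxc10. The segmental level and the library cannot be told apart. Dlk1-high and Dlk1-low cells were compared within libraries, as the rule that chose the cells asked. The distribution was wide: 75 members had at least 1000 CPM (51 of them in libraries 6 to 8) and 19 had no Dlk1 UMI. In the 390 neuron wells Dlk1 was 49.2 CPM, and the Dlk1-low cells together had 81.0 CPM. After thinning every cell to 10000 UMIs a Dlk1 UMI was left in 52.2% of them against 29.5% of neurons (unthinned 79.3% and 68.5%, at median depths of 28457 and 110618 UMIs).

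**Figure D1:**
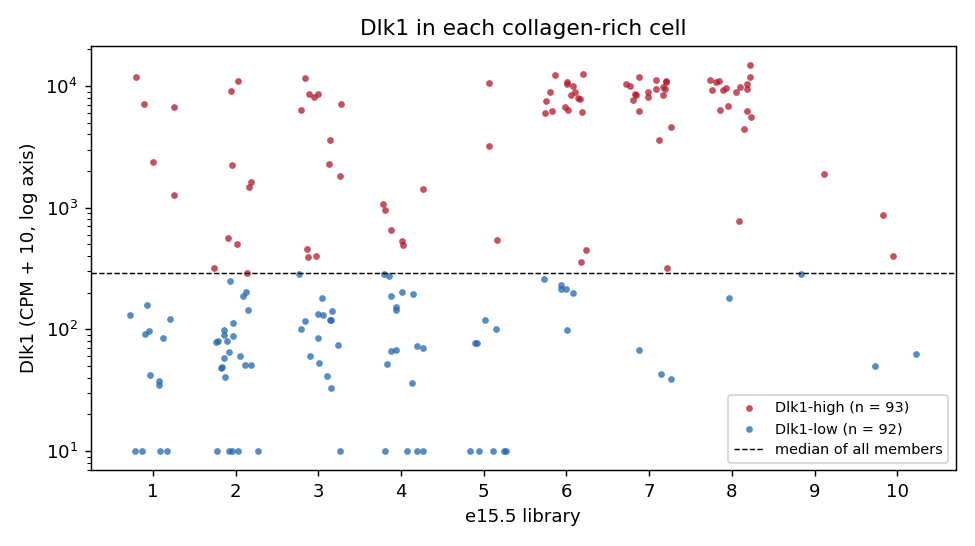
Dlk1 in each of the 185 member cells (CPM + 10 on a log axis) by e15.5 library, with Dlk1-high cells in red, Dlk1-low cells in blue and the median of all members as a dashed line. Most cells of libraries 6 to 8 lie above the line and most cells of libraries 1, 2, 4 and 5 below it.

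The name fibroblast-like held for the matrix genes and failed in part for the other markers. Of 15 pan-mesenchymal genes all were above 1 CPM, with Col3a1 at 5167 to 8009.9 CPM over libraries 1 to 8, Sparc at 2859 to 9341 CPM and Pdgfra at 167 to 496 CPM. Genes of bone-forming cells were however high in many members: Ibsp (bone sialoprotein), Alpl (the alkaline phosphatase of mineralising tissue) and Sp7 (osterix, a transcription factor required for osteoblasts) together reached at least 5 UMIs in 84 of the 185, 45.4% (exact binomial 95% interval 38.1% to 52.9%). The same limit was met by 29 of the 390 deeper neuron wells, by 54 of the 126 cycling collagen-rich cells (42.9%) and by 3 of the 41 Tnmd-positive cells. The Tnmd-positive cells came mostly from libraries 6 to 8 (21, 7 and 3 cells). In these libraries 8 of 24, 4 of 22 and 1 of 19 members met the limit. Class and library are therefore mixed in these counts. Genes of the meninges, Slc6a13 (a GABA and taurine transporter), Aldh1a2 (the enzyme that makes retinoic acid) and Ptgds (prostaglandin D synthase), together reached at least 5 UMIs in 29 members, 15.7% (exact binomial 95% interval 10.8% to 21.7%), and in 17 neuron wells, 8 cycling and 3 Tnmd-positive cells. Only 3 members met both limits and 75 met neither. These 6 genes and the limit were chosen after their values had been seen, so the counts are a description and carry no test. The intervals cover counting error only. The members are therefore called collagen-rich cells here, by the rule, and given no other name.

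The cells with bone genes were mostly Dlk1-low. They were 70 of the 92 Dlk1-low cells and 14 of the 93 Dlk1-high cells. These totals mix libraries that differ in Dlk1 and in bone genes. In libraries 1, 2, 4 and 5 to 7 most Dlk1-low cells met the limit (11 of 13, 19 of 24, 11 of 17, 9 of 9, 6 of 6 and 3 of 3). Of the Dlk1-high cells of these libraries 2 of 5, 5 of 9, 1 of 6, 1 of 3, 2 of 18 and 1 of 19 met it. The gap was thus narrow in library 2. In libraries 3 and 8 it was met by 0 of 12 and 0 of 18 Dlk1-high cells. Library 3 differed, with 7 of its 16 Dlk1-low cells meeting the limit for bone genes and 11 the limit for meningeal genes. Cells with meningeal genes were spread over both Dlk1 classes (17 Dlk1-low and 12 Dlk1-high) but not over the libraries: 21 of the 29 came from libraries 3 and 4. Across the 185 cells, on log2 CPM with each library's mean removed, Aldh1a2 correlated with Slc6a13 at r = 0.832 and with Ptgds at 0.747. Crabp2, also of the meningeal list, correlated with Slc6a13, Aldh1a2 and Ptgds at 0.455, 0.493 and 0.509. Foxc1 of the same list barely followed them, at 0.168, 0.184 and 0.108. It correlated more with the bone genes Alpl (0.372) and Runx2 (0.423). Omd (osteomodulin) correlated with Alpl at 0.66 and with Runx2 at 0.564, and Omd with Dlk1 at -0.514. Of the genes that set the limit for bone, Alpl correlated with Sp7 at 0.704, and these with Dlk1 at -0.521 and -0.494. Ibsp followed less closely, at 0.385 with Alpl, 0.460 with Sp7 and -0.234 with Dlk1. These coefficients describe cells that share a library and carry no test.

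**Figure D2:**
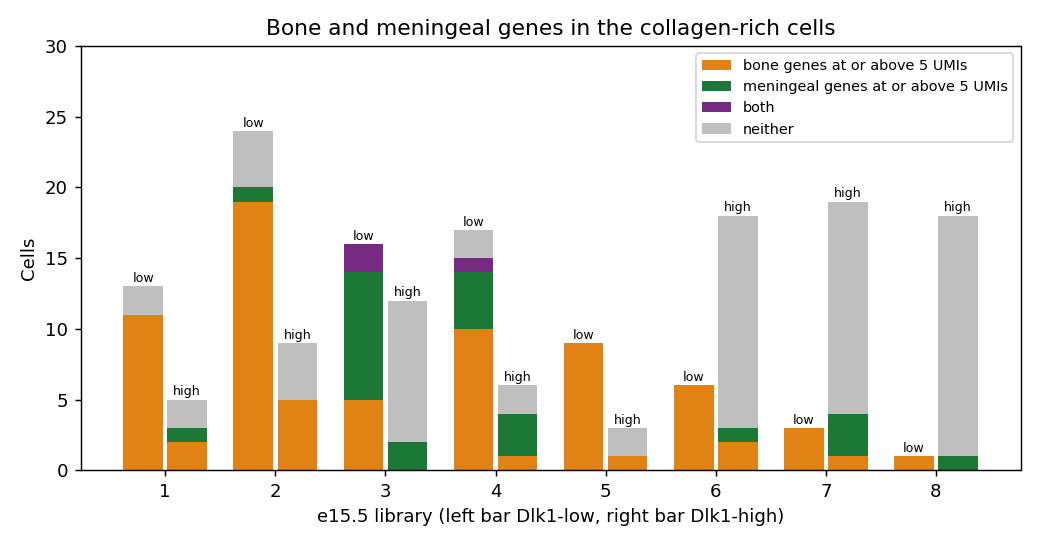
Number of Dlk1-low (left bar) and Dlk1-high (right bar) cells in e15.5 libraries 1 to 8, coloured by whether bone genes (Ibsp, Alpl and Sp7 together), meningeal genes (Slc6a13, Aldh1a2 and Ptgds together), both or neither reached 5 UMIs. Bone genes mark most Dlk1-low cells outside library 3, and meningeal genes mark cells mainly in libraries 3 and 4.

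Some of the genes that differ between the Dlk1 classes lie near each other, or near Dlk1, on the chromosomes. The promoters of a nearby pair from each class are shown for that reason. Dlk1 (109452823 to 109463336) and Meg3 (109541001 to 109571726) start 88.2 kb apart on the plus strand of chromosome 12 (GRCm38, GENCODE M21), with Rian and Mirg further along the same strand. Ibsp (104299171 to 104311469) and Spp1 (104435118 to 104441050), genes of acidic phosphoproteins of bone matrix, also called bone sialoprotein and osteopontin, start 136 kb apart on the plus strand of chromosome 5. A further pair, Aspn and Omd, starts 38.0 kb apart on chromosome 13. Each window runs from 250 bases before to 50 bases after the RefSeq start site (GRCm38.p6, plus strand, 5′ to 3′): chr12:109452573-109452872 for Dlk1, chr12:109540746-109541045 for Meg3, chr5:104299037-104299336 for Ibsp and chr5:104434861-104435160 for Spp1. Capitals mark 3 motifs searched on either strand, the TATA box (spelled TATAAA), the CCAAT box, and the core of Runx sites (spelled TGTGGT).
Dlk1: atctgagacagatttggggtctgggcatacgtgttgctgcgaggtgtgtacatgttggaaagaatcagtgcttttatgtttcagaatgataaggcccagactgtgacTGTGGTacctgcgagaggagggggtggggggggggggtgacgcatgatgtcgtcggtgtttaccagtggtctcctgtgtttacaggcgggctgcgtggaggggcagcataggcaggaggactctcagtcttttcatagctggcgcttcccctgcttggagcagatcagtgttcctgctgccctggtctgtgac
Meg3: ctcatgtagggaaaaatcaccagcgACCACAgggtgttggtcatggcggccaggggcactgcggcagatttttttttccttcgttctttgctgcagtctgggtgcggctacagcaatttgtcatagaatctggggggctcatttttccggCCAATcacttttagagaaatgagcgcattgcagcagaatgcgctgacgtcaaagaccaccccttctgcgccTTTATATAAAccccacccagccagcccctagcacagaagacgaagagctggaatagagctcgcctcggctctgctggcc
Ibsp: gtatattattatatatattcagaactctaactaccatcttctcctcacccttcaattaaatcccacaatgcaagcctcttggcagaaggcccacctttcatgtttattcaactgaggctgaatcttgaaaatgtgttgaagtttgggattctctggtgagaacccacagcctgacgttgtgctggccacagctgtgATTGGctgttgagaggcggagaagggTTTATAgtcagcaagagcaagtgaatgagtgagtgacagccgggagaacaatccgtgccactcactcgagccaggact
Spp1: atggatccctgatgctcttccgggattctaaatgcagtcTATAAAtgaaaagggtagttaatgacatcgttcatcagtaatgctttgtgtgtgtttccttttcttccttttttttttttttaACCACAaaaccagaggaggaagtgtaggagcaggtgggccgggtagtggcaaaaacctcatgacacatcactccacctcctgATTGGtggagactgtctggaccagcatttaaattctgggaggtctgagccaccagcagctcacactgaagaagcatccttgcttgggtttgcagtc
Of all 32851 promoter windows of this length, 13.6% hold the TATA box, 37.4% the CCAAT box and 16.8% the Runx core. The Meg3, Ibsp and Spp1 windows hold the TATA box (in Meg3 as 2 overlapping matches, on opposite strands) and the CCAAT box, and the Dlk1 window holds neither. The Runx core is in the Dlk1, Meg3 and Spp1 windows and not in that of Ibsp. A match is a run of letters in the window and not a binding site.

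Dlk1-high and Dlk1-low cells differed in imprinted genes, in part those of the Dlk1 cluster, and in genes of bone and of the matrix. Dlk1-high cells had more Vcan, Agtr2, Meg3 and its neighbours, type VI collagen and transcription factors of the Ebf family, whereas Dlk1-low cells had more Ibsp, Spp1, Omd, Alpl and Runx2. UMIs were summed per library and Dlk1 class in libraries 1 to 7, each with at least 3 cells in both classes. Library 8, with 1 Dlk1-low cell, could not enter. With the library as a block, 119 genes were higher (2.28% of the 5223 tested) and 125 lower (2.39%) in Dlk1-high cells at an adjusted p under 0.05, together 4.67% of the genes. All p-values for genes are from edgeR's quasi-likelihood F test with Benjamini-Hochberg adjustment over all genes tested, and fold changes are log2 ratios of summed UMIs with their standard error. No source says that libraries are separate embryos. With the library as a block, the p-values rest on how the difference between the classes varies from library to library, which may be technical. Dlk1 itself, which set the classes, was 882 to 8197 CPM in the Dlk1-high sums and 40.3 to 187 CPM in the Dlk1-low sums. The difference in depth between the classes did not pass the test. The median UMIs per cell differed by -2667 ± 4209.8 (mean and SD of Dlk1-high minus Dlk1-low, n = 7 libraries; lower in 6 of 7; exact two-sided sign-flip test, p = 0.172, smallest possible 0.0156). Glia genes summed to 34.6 to 401 CPM over the Dlk1-high sums and to 33.4 to 888 CPM over the Dlk1-low sums. Blood and immune genes summed to 29.4 to 443 CPM and 19.4 to 41865 CPM, the last value in library 6. The part of blood RNA in the results was not tested.

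Of the markers of these cells, Vcan and Agtr2 rose with Dlk1, Aspn fell, and Bgn did not pass the test. In libraries 1 to 7 in turn, Vcan stood at 158, 157, 139, 107, 90.8, 143 and 101 CPM in Dlk1-low cells and at 555, 363, 631, 448, 381, 1064 and 1182 CPM in Dlk1-high cells. No Dlk1-low value reached a Dlk1-high value, and the log2 fold change was 2.15 ± 0.22 (SE) (adjusted p = 0.000296). Here and below, overlap is described for named genes only, and its share over all genes tested was not counted. Agtr2 was 19.1, 35.0, 37.8, 42.6, 20.2, 138 and 60.4 CPM in Dlk1-low and 533, 341, 668, 66.2, 623, 910.0 and 989 CPM in Dlk1-high cells. It was higher in the Dlk1-high cells of all 7 libraries, least so in library 4, where Dlk1-high cells had the least Dlk1 too (882 CPM). The Agtr2 of that sum came from 1 of its 6 cells, at 278 CPM. The log2 fold change of Agtr2 was 3.40 ± 0.36 (SE) (adjusted p = 0.000296). Aspn was 673, 1579.8, 934, 1343, 1635, 1602 and 1782 CPM in Dlk1-low and 297, 1393, 199, 625, 588, 736 and 582 CPM in Dlk1-high cells, lower in the Dlk1-high cells of 7 of 7 libraries with overlapping ranges (log2 fold change -1.31 ± 0.20 (SE), adjusted p = 0.00221). Bgn was 814 to 1818 CPM (median 1378) in Dlk1-low and 525 to 1654 CPM (median 790.4) in Dlk1-high cells, lower in 6 of 7 libraries (-0.65 ± 0.23 (SE), adjusted p = 0.116).

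**Figure D3:**
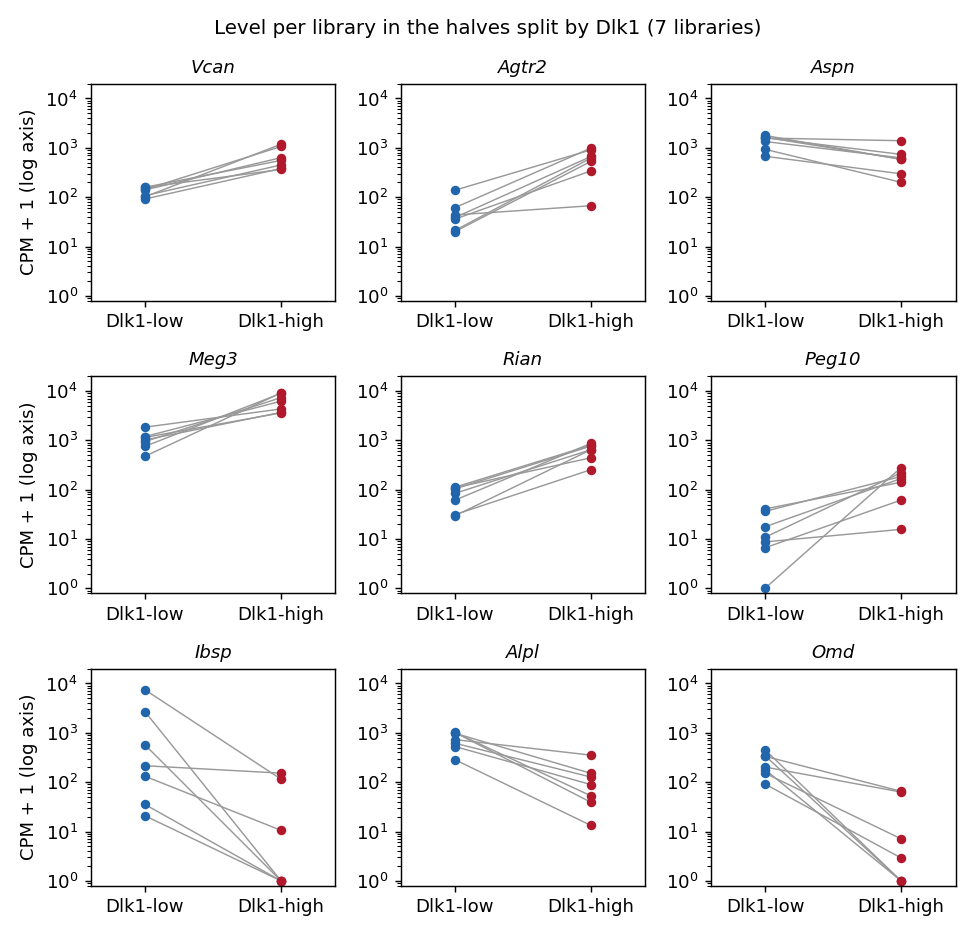
Levels of 9 genes (CPM + 1, log axis) in the Dlk1-low (blue) and Dlk1-high (red) sums of libraries 1 to 7, each line joining the sums of a library. Vcan, Agtr2, Meg3, Rian and Peg10 are higher in the Dlk1-high sum of each of the 7 libraries and Aspn, Ibsp, Alpl and Omd lower.

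Of 25 imprinted genes tested, of 39 listed, 9 were higher and 1 lower in Dlk1-high cells (40% called, beside 4.67% of all genes tested). The difference between these shares was not tested. The median log2 fold change was 0.58 beside 0.00928 over all genes tested. The noncoding RNAs of the Dlk1 cluster were among the genes called higher. Meg3 was 475, 1017, 1190.2, 1145, 1847, 944 and 755 CPM in Dlk1-low cells and 9159, 3687, 6216, 3595, 4325, 7340.4 and 8948 CPM in Dlk1-high cells of libraries 1 to 7, with no overlap (log2 fold change 2.49 ± 0.31 (SE), adjusted p = 0.000765). Rian, a noncoding RNA that carries small nucleolar RNAs, was 28.6 to 111 CPM (median 83.3) and 254 to 869.9 CPM (median 647), again without overlap (3.01 ± 0.24 (SE), adjusted p = 3.83e-05). Mirg, the transcript of a microRNA cluster, was 7.16 to 39.3 CPM (median 20.1) and 68.1 to 353 CPM (median 259) (2.83 ± 0.38 (SE), adjusted p = 0.00103). Rtl1, a further gene of the cluster that lies between Meg3 and Rian on the opposite strand, was not tested, at 1.66 CPM in the members. Outside chromosome 12, Peg10, a retrotransposon-derived gene on chromosome 6, was 0 to 39.7 CPM (median 9.83) in Dlk1-low and 14.7 to 279.7 CPM (median 167) in Dlk1-high cells (2.86 ± 0.37 (SE), adjusted p = 0.000893). Ndn, which encodes necdin, had a log2 fold change of 1.85 ± 0.31 (SE), Plagl1, a zinc finger factor, of 1.55 ± 0.39 (SE), and Ppp1r9a of 1.86 ± 0.42 (SE). Gnas, the stimulatory G protein subunit, had a log2 fold change of 1.06 ± 0.21 (SE) and Dcn of 1.66 ± 0.44 (SE). In library 4 alone Plagl1 (66.2 against 215 CPM) and Gnas (4631 against 5092 CPM) were lower in Dlk1-high cells. H19, a noncoding RNA, went the other way, with 9175 to 11640.0 CPM in Dlk1-low and 4892 to 12656 CPM in Dlk1-high cells (-0.53 ± 0.13 (SE), adjusted p = 0.0402). Its neighbour Igf2 (growth factor) was at 9533 to 15880.3 CPM in Dlk1-low and 7379 to 15075 CPM in Dlk1-high cells and was not called (adjusted p = 0.159). With a library left out, H19 and Dcn were called in only 1 of 7 fits each, Plagl1 in 2 of 7 and Gnas in 6 of 7, while Ppp1r9a was called in 3 of the 5 fits that tested it.

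Bone genes were lower in Dlk1-high cells. Of 13 tested genes of the cartilage and bone list, 6 (46.2%) were lower in Dlk1-high cells and none was higher (21 listed, median log2 fold change -0.58). Of all genes tested 2.39% were called lower, and the difference between these shares was not tested. The filter on low counts can admit a gene through 1 class alone. Genes near 0 in Dlk1-high cells, such as Ibsp and Spp1, could enter through the Dlk1-low cells, so the count is no support by itself. Ibsp was 7457, 214, 19.9, 2684, 570.1, 34.4 and 131 CPM in the Dlk1-low cells of libraries 1 to 7 and 114, 151, 0, 0, 0, 0 and 9.58 CPM in the Dlk1-high cells. It was lower in the Dlk1-high cells of each library, and the lowest Dlk1-low values lay below the highest Dlk1-high values (log2 fold change -4.54 ± 0.80 (SE), adjusted p = 0.00602). Spp1 was 525, 77.9, 17.9, 312, 50.5, 177 and 101 CPM and 0, 75.7, 0, 14.7, 0, 1.77 and 0 CPM (-3.69 ± 0.74 (SE), adjusted p = 0.0119). In 4 of the 7 libraries no Spp1 UMI was left in the Dlk1-high cells. Alpl was 1014, 728, 284, 527, 979, 614 and 1017 CPM in Dlk1-low and 38.0, 352, 12.3, 88.2, 149.9, 126 and 51.7 CPM in Dlk1-high cells (-2.99 ± 0.37 (SE), adjusted p = 0.000765). Only the Dlk1-high cells of library 2 exceeded the lowest Dlk1-low value. The transcription factors of osteoblast differentiation followed: Runx2, a factor required for osteoblasts, was 165 to 585 CPM (median 242) in Dlk1-low and 15.2 to 280.1 CPM (median 49.7) in Dlk1-high cells (-2.02 ± 0.40 (SE), adjusted p = 0.0119). Sp7 had a log2 fold change of -2.64 ± 0.54 (SE) (adjusted p = 0.0134) and Dlx5 of -2.06 ± 0.46 (SE) (adjusted p = 0.0211). Omd, a keratan sulfate proteoglycan of mineralised matrix that stands in the list of small leucine-rich proteoglycans, was 179, 334, 151, 343, 454, 201 and 90.6 CPM in Dlk1-low and 0, 64.4, 6.13, 0, 0, 62.1 and 1.92 CPM in Dlk1-high cells, with no overlap (-3.52 ± 0.49 (SE), adjusted p = 0.00124). The calls of Runx2, Sp7 and Dlx5 were lost without library 7, whose Dlk1-low sum rests on 3 cells. That of Dlx5 was lost without library 6 as well. With each library split at its own Dlk1 median, Sp7 (-1.52, adjusted p = 0.16) and Dlx5 (-0.95, adjusted p = 0.24) were not called either. After thinning to 10000 UMIs, Runx2 had a UMI in 72.8% of Dlk1-low and 26.9% of Dlk1-high cells (unthinned 80.4% and 33.3%), against 1.03% of neurons.

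**Figure D4:**
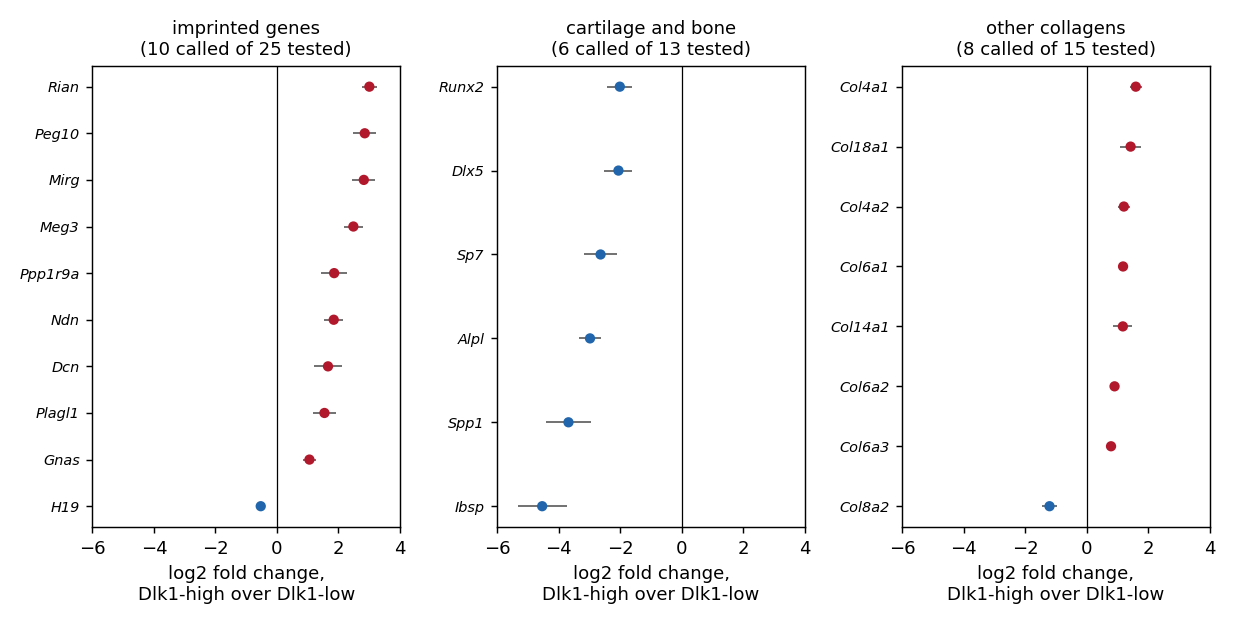
Log2 fold change of Dlk1-high over Dlk1-low cells with its standard error for the genes past the threshold in 3 lists. The imprinted genes shown are higher in Dlk1-high cells except H19, the cartilage and bone genes are lower, and the collagens are higher except Col8a2.

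Among the collagens, type VI chains and, by this split, type IV chains were higher in Dlk1-high cells. Of 15 tested non-fibrillar collagens 7 were higher and 1 lower in Dlk1-high cells (median log2 fold change 0.79). Of 6 fibrillar collagens none was higher and 1, Col11a1, was lower (-0.99 ± 0.22 (SE)). The shares called were 53.3% and 16.7%, beside 4.67% of all genes tested. The difference between the lists was not tested. The 3 chains of microfibrillar type VI collagen moved together. Col6a1 was 446, 551, 491, 609, 686, 585 and 493 CPM in Dlk1-low and 1209.6, 1041, 1099.9, 1073, 1534, 1391 and 1860.5 CPM in Dlk1-high cells of libraries 1 to 7, with no overlap (log2 fold change 1.18 ± 0.14 (SE), adjusted p = 0.000557). Col6a2 (0.90 ± 0.14 (SE), adjusted p = 0.0024) and Col6a3 (0.79 ± 0.15 (SE), adjusted p = 0.00983) did not overlap between the classes either. The basement membrane chains Col4a1 (1.60 ± 0.20 (SE)) and Col4a2 (1.21 ± 0.19 (SE)) were higher in 7 of 7 libraries, as was Col18a1 (1.43 ± 0.34 (SE)). Col14a1 was higher in 6 of 7 (1.18 ± 0.31 (SE)). The calls of the type IV chains and Col18a1 rest on where Dlk1 was split. At each library's own median Col4a1 had a log2 fold change of 0.73 (adjusted p = 0.0625), Col4a2 of 0.73 (adjusted p = 0.0568) and Col18a1 of 0.04 (adjusted p = 0.952). Between the lowest and the highest tercile of Dlk1 the values were 0.96 (adjusted p = 0.409), 0.27 (adjusted p = 0.835) and 0.27 (adjusted p = 0.907). Col8a2, a short-chain collagen, was lower in Dlk1-high cells, with 98.0 to 438 CPM against 298 to 826 CPM (-1.21 ± 0.23 (SE), adjusted p = 0.00857). The collagen I genes, part of the rule and not tested, were 8830.4 to 18926 CPM (Col1a1) in Dlk1-low and 5279 to 15975 CPM in Dlk1-high cells.

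Among the other matrix genes, of 8 tested small leucine-rich proteoglycans Dcn (decorin) was higher in Dlk1-high cells and Omd, Aspn and Fmod (fibromodulin, -1.51 ± 0.39 (SE)) were lower. Of 4 tested genes of the hyaluronan matrix Vcan and Cd44, the hyaluronan receptor, were higher (Cd44 1.43 ± 0.34 (SE), adjusted p = 0.0281). Of 31 tested elastic fibre and matricellular genes Fn1, fibronectin (1.22 ± 0.27 (SE)), and Ccn3 (3.36 ± 0.87 (SE)) were higher and Ccn1 (-1.68 ± 0.38 (SE)) and Thbs2 (-0.79 ± 0.19 (SE)) lower. Of 24 collagen processing genes the crosslinking enzyme Lox (-1.13 ± 0.20 (SE), adjusted p = 0.00686) and the procollagen enhancer Pcolce (-1.01 ± 0.27 (SE)) were lower and none was higher. The tendon list, 7 genes tested, gave Col14a1 higher and Thbs2 and Fmod lower, genes that other lists hold too. The share called was 50% in the proteoglycan list, 50% in the hyaluronan list and 42.9% in the tendon list. It was 12.9% in the elastic fibre and matricellular list and 8.33% in the collagen processing list. Of all genes tested 4.67% were called.

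Of 22 tested transcription factors of mesenchyme 5 were higher in Dlk1-high cells and 1 was lower (27.3% called, beside 4.67% of all genes tested). Ebf3, an early B cell factor active in connective tissue, was 26.3, 32.7, 13.9, 36.8, 10.1, 4.91 and 0 CPM in Dlk1-low and 243, 148, 119, 7.35, 588, 299.8 and 349 CPM in Dlk1-high cells. It was higher in the Dlk1-high cells of each library but library 4 (log2 fold change 3.05 ± 0.55 (SE), adjusted p = 0.00681). Hic1, a repressor found in quiescent mesenchymal progenitors, showed the same exception, at 0 to 69.8 CPM in Dlk1-low and 44.1 to 302 CPM in Dlk1-high cells (2.50 ± 0.46 (SE), adjusted p = 0.00763). Meox2 (1.63 ± 0.31 (SE)), Tcf7l2 (1.53 ± 0.32 (SE)) and Ebf1 (1.34 ± 0.35 (SE)) were also higher, and Twist1 (-1.07 ± 0.25 (SE)) was lower. In library 4 Meox2 (29.4 against 36.8 CPM) and Ebf1 (44.1 against 107 CPM) were lower in Dlk1-high cells too.

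The signalling lists held 3 to 27 tested genes each and gave at most 2 calls in a direction. The share called was 7.41% in the TGF-beta and BMP list and 14.3% in the insulin-like growth factor list. It was 25% in the Notch, 26.7% in the Wnt and 66.7% in the angiotensin list, beside 4.67% of all genes tested. The difference between these shares was not tested. Of the insulin-like growth factor system, 14 genes tested, Igf1 was higher in Dlk1-high cells, with 149.9 to 680.2 CPM (median 544) against 60.4 to 235 CPM (median 118) (1.79 ± 0.26 (SE), adjusted p = 0.00171), and H19, which the list also holds, was lower. Of 4 tested Notch pathway genes, Notch3, a receptor, was higher (1.82 ± 0.42 (SE), adjusted p = 0.0254). Its call was lost without library 3 or library 7. Of 27 genes of the TGF-beta and BMP pathways the ligand Bmp5 was higher (1.89 ± 0.35 (SE)) and the decoy receptor Bambi lower (-1.59 ± 0.34 (SE)). Of 15 Wnt pathway genes the inhibitor Dkk2 (1.80 ± 0.36 (SE), with no overlap between the classes) and Tcf7l2 were higher. The ligand Wnt5a (-1.78 ± 0.39 (SE)) and the Wnt enhancer Rspo3 (-1.83 ± 0.45 (SE)) were lower. Of 3 tested genes of the angiotensin system Agtr2 was higher and Mme, which encodes the peptidase neprilysin, lower (-2.56 ± 0.47 (SE), adjusted p = 0.00751). The meningeal list gave no call among 6 genes (median log2 fold change -0.08; the most abundant tested, Igfbp2, had 0.30 ± 0.46 (SE)). No call came from the perineurial and endoneurial (6 tested), adipogenic (4), dermal (1), ganglion growth factor and guidance (13), or immediate early and stress (23) lists. Of the lists for other cells, Notch3 was the 1 call among 2 mural genes, Runx3 the 1 call among 8 sensory neuron genes (lower, -1.47 ± 0.36 (SE)), Ccnd2 the 1 call among 11 cell cycle genes (lower, -0.93 ± 0.19 (SE)). Glia (1 tested) and blood and immune genes (2 tested) gave none, and no endothelial or myogenic gene was abundant enough to test. Of 14 pan-mesenchymal genes tested the 3 type VI collagen genes and Dcn were higher, and Twist1 and Pdgfrb, a growth factor receptor (-1.07 ± 0.26 (SE)), lower.

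The remaining genes with the largest changes in each direction included secreted proteins and transporters. Angptl1, a secreted angiopoietin-related protein, was 4.77, 26.0, 9.94, 36.8, 10.1, 4.91 and 0 CPM in the Dlk1-low cells of libraries 1 to 7 and 53.3, 151, 129, 139.7, 57.7, 241 and 279.7 CPM in the Dlk1-high cells, without overlap (log2 fold change 3.11 ± 0.36 (SE), adjusted p = 0.000557). Tril, an accessory protein of Toll-like receptors, was 2.39 to 35.8 CPM (median 10.1) and 30.3 to 239.5 CPM (median 144) (2.74 ± 0.46 (SE), adjusted p = 0.00415). Ccn3, a matricellular protein, was 145, 22.7, 702, 0, 323, 639 and 689.8 CPM in the Dlk1-high cells, with no UMI in library 4, and 0 to 110.5 CPM (median 12.4) in the Dlk1-low cells (adjusted p = 0.0435). The call was lost without library 1, 5 or 7. Among genes lower in Dlk1-high cells, Npnt, nephronectin, was 175 to 484 CPM (median 251) in Dlk1-low and 1.92 to 151 CPM (median 22.1) in Dlk1-high cells, without overlap (-2.96 ± 0.40 (SE), adjusted p = 0.00103). Slc40a1, the iron exporter ferroportin, was 93.1 to 675 CPM (median 146) and 0 to 83.3 CPM (median 15.3) (-2.75 ± 0.43 (SE), adjusted p = 0.00246). Itgbl1, an integrin beta-like protein, had -2.89 ± 0.42 (SE) (adjusted p = 0.0018), and Ndnf, a secreted neurotrophic protein, -2.58 ± 0.57 (SE) (adjusted p = 0.0213). Each of these 4 was lower in 7 of 7 libraries.

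Single libraries weighed on the number of calls. Without library 1, 6 or 7 it fell from 119 higher and 125 lower to 66 and 69, 71 and 47, and 65 and 35, and without library 5 the lower genes fell to 78. Of the called genes named by Dlk1 class, Agtr2, Vcan, Aspn, Meg3, Rian, Mirg, Ndn, Angptl1, Hic1, Omd, Alpl, Npnt, Slc40a1, Mme, Igf1, Lox, Bmp5, Meox2, Dkk2, Col8a2 and the type IV and type VI collagen genes were called in all 7 fits that left out a library. Peg10, Tril, Ibsp, Spp1 and Itgbl1 passed the filter on low counts in 6 of these fits and Ebf3 in 5, and they were called in those. Runx2, Sp7, Gnas, Tcf7l2 and Ccnd2 were lost without library 7. Fn1 was lost without library 1 or 6, Ndnf without 5 or 6, and Ppp1r9a without 1 or 7. Col14a1, Col18a1, Col11a1, Fmod, Pcolce, Thbs2, Ccn1, Ccn3, Cd44, Twist1, Ebf1, Pdgfrb, Bambi, Wnt5a, Rspo3, Runx3, H19, Dcn and Plagl1 were each lost without 3 or more different libraries taken 1 at a time. Sums of at least 5 cells, from fewer libraries, ended, among others, the calls of Ibsp, Spp1, Runx2, Sp7, Ebf3, Hic1, Tril, Lox, Meox2 and Dkk2. Splitting each library at its own Dlk1 median ended, among others, those of Angptl1, Tril, Sp7, Dlx5, Igf1, Bmp5, Col8a2 and Dkk2 (Dkk2 0.18, adjusted p = 0.853). The lowest against the highest tercile of Dlk1 ended, among others, the calls of Aspn, Mme and Lox. Leaving out wells with glial UMIs, an alternative chosen after the data were seen, gave 124 higher and 137 lower.

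Across the 185 cells the genes whose log2 level followed Dlk1 most closely, among those of at least 50 CPM and with each library's mean removed, were Ebf3 (r = 0.677), Nfib, a nuclear factor I gene (0.667), Meg3 (0.658), Angptl1 (0.653) and Ebf2 (0.649). At the other end stood Fgfr2, a fibroblast growth factor receptor (-0.665), Maf (-0.577), Unc5b, a netrin receptor (-0.553), and Bmp3 (-0.534). Agtr2 (0.59) and Vcan (0.547) came close to the first group, while the coefficients of Aspn (-0.185) and Bgn (-0.22) were negative and smaller. Cells of a library share its depth and preparation, and these coefficients carry no test.

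The collagen-rich cells were next set beside their nearest neighbours in the sort, the 41 non-cycling cells with at least 3 UMIs of Tnmd, a membrane protein of tendon cells. Both classes had at least 3 cells in libraries 2, 3, 6, 7 and 8. Tnmd chose the cells, and genes known to accompany it follow that choice. Of 7497 genes, 23 were higher (0.307%) and 22 lower (0.293%) in the collagen-rich cells, 0.6% in all. Pltp, a phospholipid transfer protein, was 102, 362, 41.7, 30.6 and 37.6 CPM in the collagen-rich cells of the 5 libraries and 0, 5.77, 5.12, 0 and 0 CPM in the Tnmd-positive cells. No values overlapped (log2 fold change 4.62 ± 0.53 (SE), adjusted p = 0.00553). Asb4, an imprinted gene, was 18.3, 36.2, 171, 232 and 280.0 CPM and 0, 0, 34.2, 19.3 and 0 CPM (3.13 ± 0.42 (SE), adjusted p = 0.0122). Alpl (2.73 ± 0.46 (SE)), Npnt (2.77 ± 0.47 (SE)), Slc40a1 (2.81 ± 0.48 (SE)) and Rspo3 (2.47 ± 0.45 (SE)) were also higher in the collagen-rich cells. So were Abca8a, a lipid transporter, the scavenger receptor gene Scara3, the adenylyl cyclase gene Adcy1 and the calcium-binding protein gene S100a6 (log2 fold changes 2.85, 2.82, 3.10 and 3.33). Lower in them were Scx, the scleraxis gene of tendon progenitors, at 33.9, 14.5, 28.7, 16.1 and 4.71 CPM against 25.7, 80.7, 656, 342 and 61.2 CPM (-3.19 ± 0.58 (SE), adjusted p = 0.0304; lower in 4 of 5 libraries). Sox9, the regulator of cartilage, was at 137, 145, 26.1, 69.2 and 42.4 CPM against 908, 582, 49.5, 579 and 1142 CPM (-2.70 ± 0.40 (SE), adjusted p = 0.0209). The Wnt inhibitor Wif1, Cpm (carboxypeptidase M), Tgfbi, Col25a1, Stk26, Pcsk6, Kif26b and Prss35 were lower too (log2 fold changes -3.94 to -2.11).

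Of the markers of the collagen-rich cells none passed the test against Tnmd-positive cells: Vcan had a log2 fold change of 0.56 ± 0.81 (SE), Agtr2 of 1.56 ± 0.38 (SE) (higher in 5 of 5 libraries, adjusted p = 0.133), Aspn of 0.01 ± 0.45 (SE) and Bgn of -0.57 ± 0.27 (SE). Dlk1, not tested, was 2896 CPM in the collagen-rich and 3423 CPM in the Tnmd-positive cells. By list, 2 of 10 tendon genes (Scx and Col14a1) were lower, 2 of 13 cartilage and bone genes were lower (Sox9 and Sox6) and 1 higher (Alpl). Of 28 imprinted genes 3 were higher (Asb4, Cdkn1c and Zim1) and none lower. The list medians of tendon, cartilage and bone, and imprinted genes were -1.13, -1.93 and 0.33 beside 0.02 over all genes. The other lists had at most 2 calls in a direction. These calls rest on few cells: the Tnmd-positive sums held 3, 5, 21, 7 and 3 cells. Without library 6 no gene was called higher and 2 lower, without library 7 the counts were 2 and 0, without library 2 they were 9 and 7, and without library 8 5 and 4 (at an unadjusted p under 0.05, 256 higher genes without library 6 and 259 lower genes without library 7). With no block for the library 3 were higher and 2 lower. Pltp was called in all 4 fits in which it passed the filter with a library left out. Asb4 and Abca8a were lost without library 7 alone, Sox9 without 2 or 7, Tgfbi without 6 or 7, and the other called genes named here without 3 or more libraries taken 1 at a time.

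Against the 126 cycling cells that met the same collagen and neuron limits (Mki67 and Top2a together at least 100 CPM, with or without Tnmd), in libraries 1 to 8, the collagen-rich non-cycling cells had more of several meningeal genes and less of the cell cycle machinery. Of 8356 genes 235 were higher (2.81%) and 577 lower (6.91%), 9.72% in all. The lower genes include those that go with the genes used to choose the cells: of 25 tested cell cycle genes 17 were lower. The 10 largest falls were those of Aurkb, Hmmr, Nuf2, Kif2c, Hist1h2ao, Kif4, Cenpf, Aspm, Bub1b and Neil3, genes of the spindle, kinetochore, histones or DNA repair (log2 fold changes -7.72 to -6.67). Nothing is read from these. Of 10 tested meningeal genes 5 were higher in the non-cycling cells and none lower (median log2 fold change 0.81 beside 0.04 over all genes). Aldh1a2 was 1.82, 53.9, 589, 325, 0, 10.4, 11.3 and 25.9 CPM in the non-cycling cells of libraries 1 to 8 and 0, 27.1, 102, 114, 0, 2.03, 17.1 and 5.17 CPM in the cycling cells. Its highest values were those of libraries 3 and 4 in both classes (log2 fold change 1.54 ± 0.28 (SE), adjusted p = 0.00141). Ptgds was 0, 40.0, 4402, 1288, 0, 0, 196 and 7.06 CPM and 0, 27.1, 67.8, 538, 0, 0, 29.9 and 0 CPM (2.50 ± 0.54 (SE), adjusted p = 0.00825). Slc6a13 (1.33 ± 0.36 (SE)), Crabp2, a retinoic acid binding protein (1.20 ± 0.28 (SE)), and Igfbp2 (0.95 ± 0.29 (SE)) were the others called. Left out 1 at a time, libraries 3, 4 or 8 ended the call of Slc6a13 and libraries 1, 3, 4, 6 or 7 that of Igfbp2. Crabp2 was called in all 8 fits, and Aldh1a2 and Ptgds in the 5 and 4 fits in which they passed the filter on low counts.

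Of the other genes higher in the non-cycling cells, Dpt, the matrix protein dermatopontin, was 0, 38.3 and 166 CPM (lowest, median and highest library) against 0, 7.04 and 24.3 CPM (2.46 ± 0.52 (SE), adjusted p = 0.00496). Enpp2, autotaxin, the enzyme that makes lysophosphatidic acid, was 41.8, 149 and 694 CPM against 18.9, 64.3 and 166 CPM (1.36 ± 0.21 (SE), adjusted p = 0.000199), higher in 8 of 8 libraries. Tmem150a, Ppp1r1a, Tcp11l2, Cp (ceruloplasmin), Nkain4, Mylk (myosin light chain kinase) and Nckap5l had log2 fold changes of 1.36 to 2.22. Spp1 was higher (1.86 ± 0.47 (SE); lost without library 1 or 4). Hapln1 (-2.22 ± 0.37 (SE)) and Cnmd (-1.31 ± 0.32 (SE), lost without library 3 or 5), genes of cartilage, were lower. Scx was lower too (-1.78 ± 0.48 (SE), a call lost without library 6, 7 or 8). Wells with Tnmd were left out of the non-cycling cells only, so genes that accompany Tnmd follow that choice in part. Its share in these falls was not tested. Of 15 genes of the insulin-like growth factor system 4 were higher, the binding proteins Igfbp2, Igfbp3 (1.18 ± 0.28 (SE)) and Igfbp4 (0.41 ± 0.10 (SE)) and the protease Pappa (1.34 ± 0.37 (SE)), and none lower. Of these only Igfbp3 was called whichever library was left out. Igfbp4 was lost without library 2 and Pappa without library 4, 6 or 8. The markers did not pass the test: Vcan had 0.50 ± 0.25 (SE), Agtr2 0.72 ± 0.32 (SE), Aspn 0.20 ± 0.13 (SE) and Bgn 0.01 ± 0.11 (SE). The remaining lists gave at most 3 calls in a direction. The median log2 fold change over all genes was under 0.05 in each of the 3 comparisons. They share the collagen-rich cells and are not independent of each other.

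**Figure D5:**
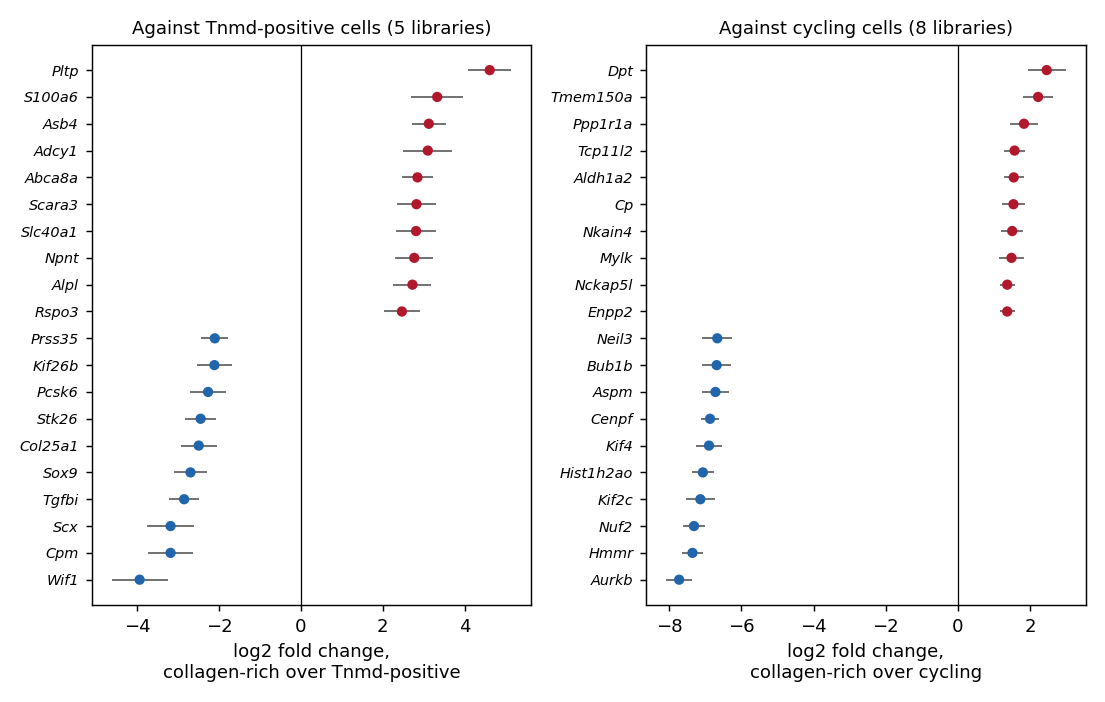
Log2 fold changes with standard errors of the 10 genes with the largest change in each direction, collagen-rich cells over Tnmd-positive cells (left, 5 libraries) and over cycling cells (right, 8 libraries). Pltp stands highest on the left and Dpt on the right, and the lower genes on the right are those of cell division.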

How the data were processed

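The members, the gene lists and the comparisons were chosen with earlier results of these data known. CEL-Seq2 libraries of single sorted cells were demultiplexed, mapped and counted by the authors with scruff; the deposited values are raw UMI counts per gene and well, unfiltered. The submitters' processing notes name GRCm38 (mm10). Symbols, gene types and places are from GENCODE M21 (GRCm38); 49326 of 49671 IDs had a symbol. No 2 member wells had identical counts.

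Counts were summed per library and class (at least 3 cells) and tested with edgeR (version 4.0.16) in R (version 4.3.3): filterByExpr, TMM, quasi-likelihood F test with the library as a block, Benjamini-Hochberg threshold 0.05. SE is the absolute log2 fold change over the square root of F. The genes of the rule and mitochondrial genes stayed in the totals but were not tested. Sums of 1 library are paired because they come from 1 preparation: over 2000 genes their deviations from class means had a median r of 0.237, 0.166, 0.435 in the comparisons by Dlk1, Tnmd and cycling, and sums of different libraries -0.0681, -0.0597, -0.112. The fit was tested on simulated data. Depth per cell was compared by exact sign flips over libraries.

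Named genes were the markers, the members of 30 lists (559 of 561 genes matched) and, per comparison, the 10 protein-coding or long noncoding genes with the largest fold change in each direction among those past the threshold, with a mean of at least 20 CPM and the same direction in at least 3 of 4 libraries. Correlations used log2(CPM + 10), library means removed, for genes of at least 50 CPM, naming 5 at each end, of which 1 gene is not reported here. Thinning drew 10000 UMIs per cell. Alternatives were DESeq2 (version 1.42.0) and its size factors, no filter, no block, sums of at least 5 cells, thinned counts, cells of at least 20000 UMIs, other splits of Dlk1, Tnmd and cycling, and leaving out each library, libraries 9 and 10, or wells with Xist and Y-linked UMIs. Leaving out wells with at least 3 UMIs of 6 glial genes and a split at 1000 CPM of Dlk1 were added after the data were seen. Python (version 3.11.15), SciPy (version 1.17.1) and Matplotlib (version 3.10.9) served for the rest. The p1 libraries were not compared.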

Additional observations from a re-analysis of the deposited data

Results flagged for a closer look

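Of 27 measures examined over libraries 1 to 8 (the levels of the markers and of the genes with the largest change by Dlk1, and depth and mitochondrial share per cell), 1 had a library far from the others by Dixon's test: Ibsp in the members stood at 5703 CPM in library 1 and at 0 to 2124 CPM in the other 7. Chance alone gives about 1 such value in 20 measures. Without library 1 the log2 fold change of Ibsp between Dlk1-high and Dlk1-low cells was -3.83.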

How the results depend on the processing

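The reported fits all held the library as a block. With no replicate block, the counts of genes higher and lower were 152 and 120 by Dlk1, 3 and 2 against Tnmd-positive cells and 103 and 485 against cycling cells, where the paired fits gave 119 and 125, 23 and 22, and 235 and 577. Leaving out each library in turn gave 65 to 128 higher and 35 to 131 lower by Dlk1, 0 to 30 higher and 0 to 27 lower against Tnmd-positive cells and 140 to 232 higher and 421 to 558 lower against cycling cells. By Dlk1 the counts also moved with no filter on low counts (360 and 318, of 22448 genes), a split at 1000 CPM (234 and 196), the lowest against the highest tercile of cells (63 lower), sums of at least 5 cells (49 and 23, from fewer libraries) and cells thinned to 10000 UMIs (47 and 37, of 1840 genes). Against Tnmd-positive cells DESeq2 called 42 and 40, no filter 264 and 108, cells of at least 20000 UMIs 8 and 4, sums of at least 5 cells 10 and 6, and thinned cells 8 and 6. Against cycling cells DESeq2 called 147 higher, no filter 388 higher, and thinned cells 40 higher and 149 lower. Beyond what fewer genes, cells or libraries explain by construction, the cause was not tested. Of the named genes 61 of 61 by Dlk1 kept their direction under every alternative run, 32 of 34 against Tnmd-positive cells and 62 of 63 against cycling cells. The exceptions were genes that were not called: against Tnmd-positive cells Vcan was -0.12 without library 6 and -0.0881 without library 7 (range over libraries left out -0.12 to 1.42), and Aspn -0.0204 with no block, -0.35, -0.19 and -0.0359 without libraries 2, 6 and 7 (range -0.35 to 0.58), and -0.16 after thinning; against cycling cells Bgn was -0.0747, -0.0421, -0.0156 and -0.000307 without libraries 2, 4, 6 and 7 (range -0.0747 to 0.0842), and -0.0075 without the wells with Xist and Y-linked UMIs (log2 fold changes). By Dlk1 a sum held 3 to 24 cells, which limits its precision.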
